A study of Heterocephalus glaber with 3 samples.

Results

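The genes described here encode oxidative phosphorylation, the machinery of the inner mitochondrial membrane that turns the energy of nutrients into ATP. Of 23189 features in the deposited lists, 65 were members: 52 encoded in the nucleus and 13 in the mitochondrial genome. They were taken by symbol, ignoring case: NDUF subunits with the letters A, B, C, S or V, UQCR genes, SDHA to SDHD, COX genes numbered 4 to 8, ATP5 genes, and the mitochondrial protein-coding genes. The nuclear members held 25 genes of complex I, 4 of complex II, 5 of complex III, 10 of complex IV and 8 of complex V by their names. The mitochondrial members held 7 of complex I, 1 of complex III, 3 of complex IV and 2 of complex V. By name NDUFA4 was counted in complex I, although it is now regarded as a complex IV subunit. COX7A2L, a factor of supercomplex assembly, was counted in complex IV, and ATP5SL, an older symbol of a complex I assembly factor, in complex V. Of all features 11611 carried no symbol and could not be matched, so nuclear subunits among them were not analysed here.

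Complex I takes electrons from NADH and complex II from succinate. Complex III passes them through cytochrome c to complex IV, which reduces oxygen, and complex V uses the resulting proton gradient to make ATP. Complexes I, III, IV and V are built from subunits of both genomes, while complex II is wholly nuclear. The mitochondrial genome is transcribed by its own polymerase as long precursors that are cut into shorter RNAs, whereas each nuclear subunit has its own promoter.

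Tumours from the lungs of 3 animals of the naked mole-rat, Heterocephalus glaber, were dissociated for single-cell RNA sequencing, each giving 1 library, and all belong to 1 group. All 3 animals received an adenovirus with CRISPR reagents, carried edits of which an Eml4-alk inversion and Rb loss are part, and were studied 15 weeks after infection. The tumours had been cut by hand from normal lung, and polyadenylated RNA was captured in droplets with 10x 3′ chemistry. No untreated animal was among the samples, so every comparison below is between cell classes of the same 3 animals, numbered as the labels number the replicates.

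The libraries held 9500 to 10000 barcodes and 76093932 to 91949365 UMIs, the molecules counted, and 7770 to 8883 cells per animal were kept, 24580 in all. The library pairs shared 21 to 31 barcodes, 0 of them with equal UMI totals. Cells were kept only with under 20% mitochondrial UMIs, a limit that bounds the quantity studied here and left out 8.76% to 18.7% of the barcodes with enough UMIs and genes. Clustering without the members and their related genes gave 31 clusters, and 12 lineage classes had at least 20 cells in every animal. Of the markers of the classes compared below, B markers summed to 194 to 223 counts scaled to the library total (CPM) in plasma-like cells against 1582 to 2250 in B-like cells. Neutrophil markers summed to 2702 to 7402 CPM in neutrophil-like cells against 216 to 594 in monocyte or macrophage-like cells, but monocyte markers were also higher there, at 2226 to 3620 CPM in neutrophil-like cells against 604 to 952 in monocyte or macrophage-like cells. Ciliated markers summed to 5265 to 7476 CPM in ciliated-like cells against 10.0 to 27.9 in alveolar type 2-like cells.

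Under the 20% limit the mitochondrial members took the smallest share of RNA in neutrophil-like cells and the largest in B-like and ciliated-like cells. In neutrophil-like cells they made up 2.72%, 2.44% and 4.82% of UMIs in animals 1, 2 and 3. B-like cells had 8.83%, 7.89% and 10.7%, and ciliated-like cells 9.78%, 7.70% and 9.83%. The ranges of neutrophil-like cells and of these 2 classes did not overlap. Between them, in rising order of the mean, came plasma-like cells with 5.14% ± 0.41 and alveolar type 2-like cells with 5.81% ± 0.81 (SD, n = 3 animals each). Dendritic-like cells averaged 6.15% ± 0.57, endothelial-like cells 6.66% ± 0.87 and IGF2/MMP3 fibroblast-like cells 7.21% ± 0.92. Monocyte or macrophage-like cells averaged 7.76% ± 1.11, other epithelial-like cells 7.77% ± 0.47, T or NK-like cells 7.84% ± 0.94 and other fibroblast or mural-like cells 8.33% ± 0.66. Each class overlapped its neighbour in this order, so the order is firm only between classes far apart in it.

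The nuclear members gave another order, led by IGF2/MMP3 fibroblast-like cells, a cluster whose leading genes are GKN2, MMP3 and IGF2. Their nuclear share was 1.73%, 1.67% and 1.71% in animals 1, 2 and 3, above every value of other epithelial-like cells, the next class, with 1.52%, 1.49% and 1.62%. T or NK-like cells averaged 1.51% ± 0.06, dendritic-like 1.48% ± 0.05, monocyte or macrophage-like 1.38% ± 0.13, ciliated-like 1.38% ± 0.16, alveolar type 2-like 1.26% ± 0.09 and endothelial-like 1.21% ± 0.05. B-like cells, which followed, averaged 1.10% ± 0.04 and did not overlap with endothelial-like cells, while other fibroblast or mural-like cells averaged 1.10% ± 0.07. Neutrophil-like cells averaged 0.890% ± 0.18. Plasma-like cells, with 0.541%, 0.576% and 0.386%, lay below all others without overlap. In plasma-like cells 10 non-mitochondrial features held 66.7% of UMIs, with the immunoglobulin light chain gene IGKC among them, against 33.0% in alveolar type 2-like, 26.7% in neutrophil-like and 8.68% to 13.7% in the other 9 classes. A share of all UMIs moves with such abundant transcripts, and their part in these shares was not tested apart from the scaling alternatives given beside each comparison.

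The ratio of mitochondrial to nuclear-member UMIs cancels library size. It was highest in plasma-like cells, at 8.78, 8.85 and 14.4 mitochondrial UMIs per nuclear-member UMI, and lowest in neutrophil-like cells, at 3.20, 3.32 and 4.43. Other fibroblast or mural-like cells had 7.35, 7.57 and 7.87, above ciliated-like cells with 6.65, 6.44 and 6.64, which in turn lay above monocyte or macrophage-like cells with 5.39, 5.44 and 5.95. IGF2/MMP3 fibroblast-like cells had 4.01, 3.86 and 4.82, so the 2 fibroblast classes lay near opposite ends. Over the 36 sums of 12 classes and 3 animals, the mitochondrial and nuclear shares had a Pearson r of 0.50, and over the 33 sums without neutrophil-like cells r was 0.43. The points share libraries and the closed total of UMIs, so r is given as a description.

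**Figure D1:**
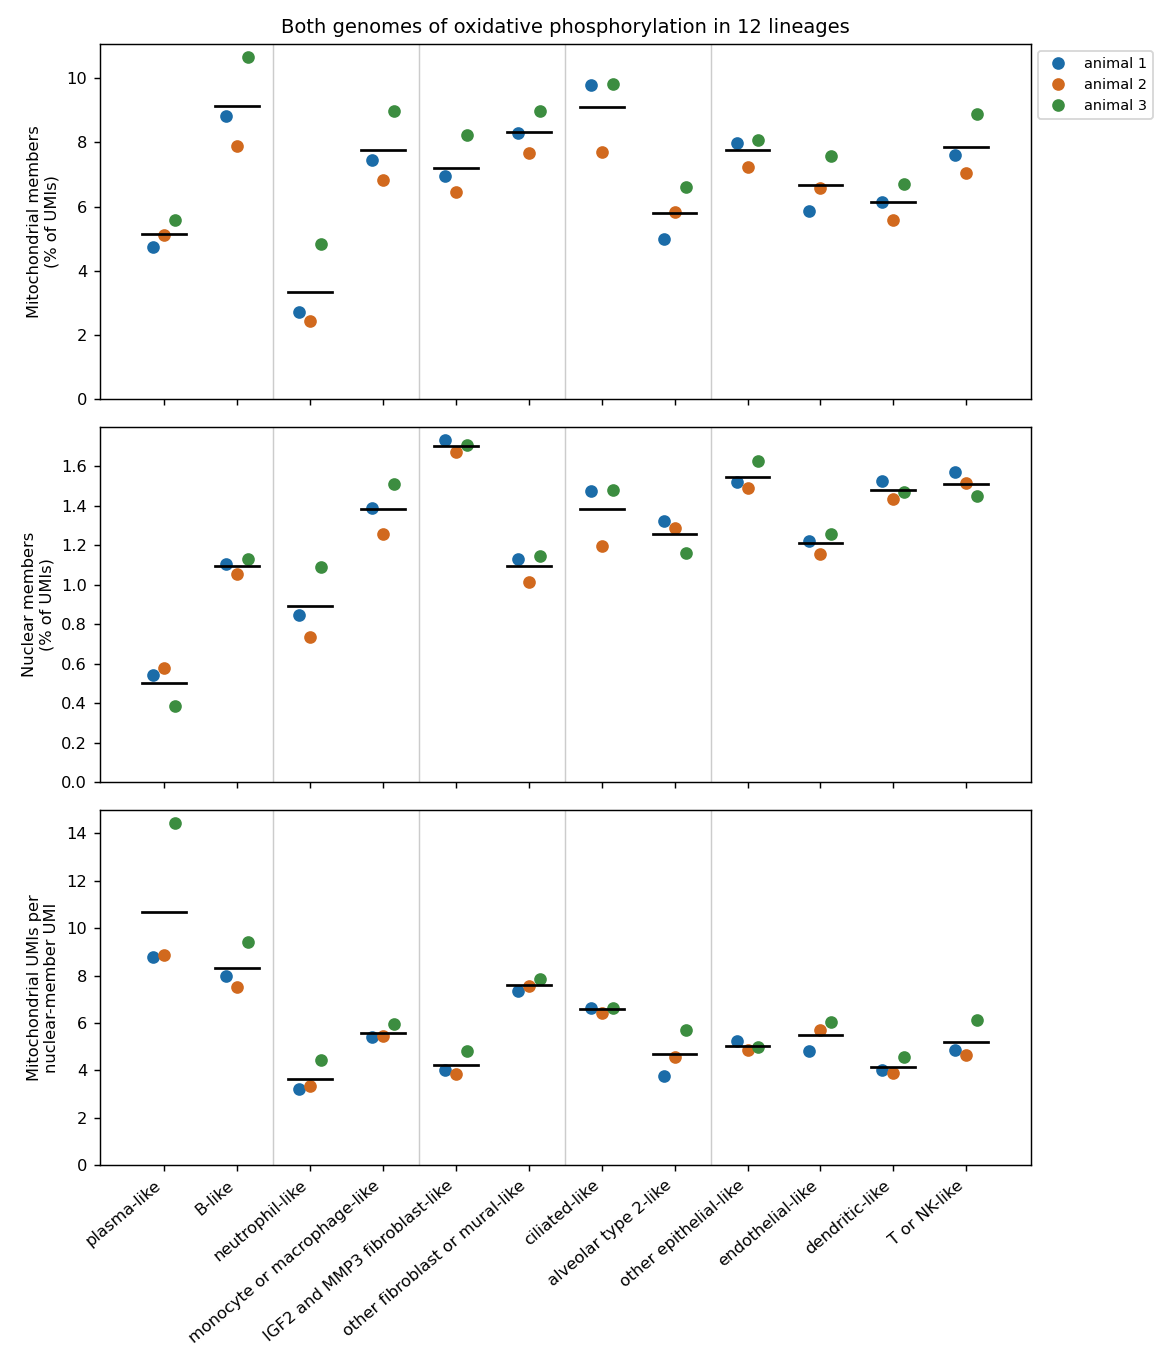
Mitochondrial members (top, % of UMIs), nuclear members (middle, % of UMIs) and their ratio (bottom) in 12 lineage classes, with 1 point per animal and a line at the mean of 3. Neutrophil-like cells are lowest in the top panel (2.44% to 4.82%), plasma-like cells lowest in the middle panel (0.386% to 0.576%) and highest in the bottom panel (8.78 to 14.4).

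Complexes I, III, IV and V followed the nuclear order at both ends. The nuclear members of complex I, the largest of the complexes, held 0.601% ± 0.003 of UMIs in IGF2/MMP3 fibroblast-like cells and 0.182% ± 0.037 in plasma-like cells. Those of complex III held 0.115% ± 0.018 and 0.0360% ± 0.012 in the same classes. Those of complex IV held 0.553% ± 0.010 and 0.150% ± 0.028, and those of complex V 0.367% ± 0.042 and 0.115% ± 0.023. Complex II, the link to the citric acid cycle, differed at its upper end: it was highest in monocyte or macrophage-like cells, at 0.0764% ± 0.0038, and ciliated-like cells, at 0.0745% ± 0.012, and held 0.0179% ± 0.0037 in plasma-like cells. Taken singly, 49 of the 52 nuclear members had their lowest mean CPM in plasma-like cells, 15 had their highest in IGF2/MMP3 fibroblast-like cells and 13 in ciliated-like cells. On library totals, the scale of CPM, 7189 of 8687 features were called lower in plasma-like than in B-like cells. The share of all features lowest in plasma-like cells was not computed, so the 49 are not set apart from other genes. Of the 13 mitochondrial members, 10 were lowest in neutrophil-like cells, 3 were lowest in plasma-like cells and 6 were highest in ciliated-like cells. The median range of a member from its lowest to its highest class was 2.02 on the log2 scale for nuclear members, 4.05-fold, and 1.64 for mitochondrial members, 3.01-fold. In a quasi-likelihood F test over all classes with edgeR, 63 of 65 members differed among classes at an adjusted p under 0.05, beside 95.1% of the 12520 features tested, so the count sets the members apart from no other gene. The 2 that did not pass were NDUFS1, a core iron-sulfur subunit of complex I (edgeR adjusted p = 0.0754), and ATP5SL (edgeR adjusted p = 0.136). The classes rest on clusters drawn from other genes of the same cells, so none of the p-values given here is calibrated.

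COX4I2, the alternative isoform of complex IV subunit 4 (ENSHGLG00000046803), had by far the widest range of the members, 5.46 on the log2(CPM + 1) scale. It was found at 65.1, 27.9 and 43.9 CPM in other fibroblast or mural-like cells and at 12.3, 24.4 and 6.39 CPM in endothelial-like cells. Endothelial-like cells numbered only 53, 100 and 44, so their COX4I2 levels rest on few UMIs. Mural markers in endothelial-like cells summed to 27.7, 162 and 6.39 CPM, and whether mural cells or their RNA entered that class was not tested. In each of the other 10 classes every animal lay at or below 2.74 CPM, and all 3 epithelial classes had 0 UMIs. Over the 3 animals a count of 0 allows up to 3.52 CPM in ciliated-like, 2.53 CPM in alveolar type 2-like and 0.870 CPM in other epithelial-like cells, taken as 3 counts of the class total. COX4I1, the common isoform of the same subunit (ENSHGLG00000040940), was detected in every class, from 254 ± 41 CPM in plasma-like to 1070.0 ± 114 CPM in IGF2/MMP3 fibroblast-like cells (SD, n = 3).

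On the CPM scale, which lowers most features in plasma-like cells, the other widely ranging nuclear members shared that class as their lowest and split at the top. NDUFA5, NDUFS4, NDUFB9 and NDUFB5, accessory subunits of complex I, were highest in ciliated-like cells, as was SDHD, a membrane anchor of complex II. Their ranges were 2.79, 2.47, 2.44, 2.37 and 2.48 on the log2 scale in that order. NDUFA5 had 129, 93.6 and 93.8 CPM in ciliated-like cells against 17.1, 19.5 and 8.59 CPM in plasma-like cells. NDUFV3, another accessory subunit of complex I, and ATP5D, the delta subunit in the rotor stalk of complex V, were highest in IGF2/MMP3 fibroblast-like cells, with ranges of 2.27 and 2.28. COX7A2L was highest in T or NK-like cells, at 244, 212 and 245 CPM, with B-like cells next at 233, 189 and 236 CPM, and ranged over 2.42. NDUFA8, which in other mammals is an accessory complex I subunit of the intermembrane space, was highest in endothelial-like cells, at 373, 267 and 265 CPM, with a range of 2.32. SDHD departed from the other wide members, since IGF2/MMP3 fibroblast-like cells were the second lowest class for it, at 143 ± 9.1 CPM.

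Among the other alternative subunits looked for, NDUFA4 was measured in every class, from 244 ± 61 CPM in plasma-like to 872 ± 182 CPM in ciliated-like cells. COX6B2, known in other mammals as the testis form of a complex IV subunit, had a median over classes below 1 CPM and reached at most 8.60 CPM, in alveolar type 2-like cells of animal 3. It passed the test over all classes (edgeR adjusted p = 1.82e-05), on few molecules: its highest mean, 4.19 ± 4.30 CPM in alveolar type 2-like cells (SD, n = 3), rests on 0, 1 and 6 UMIs in animals 1, 2 and 3.

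**Figure D2:**
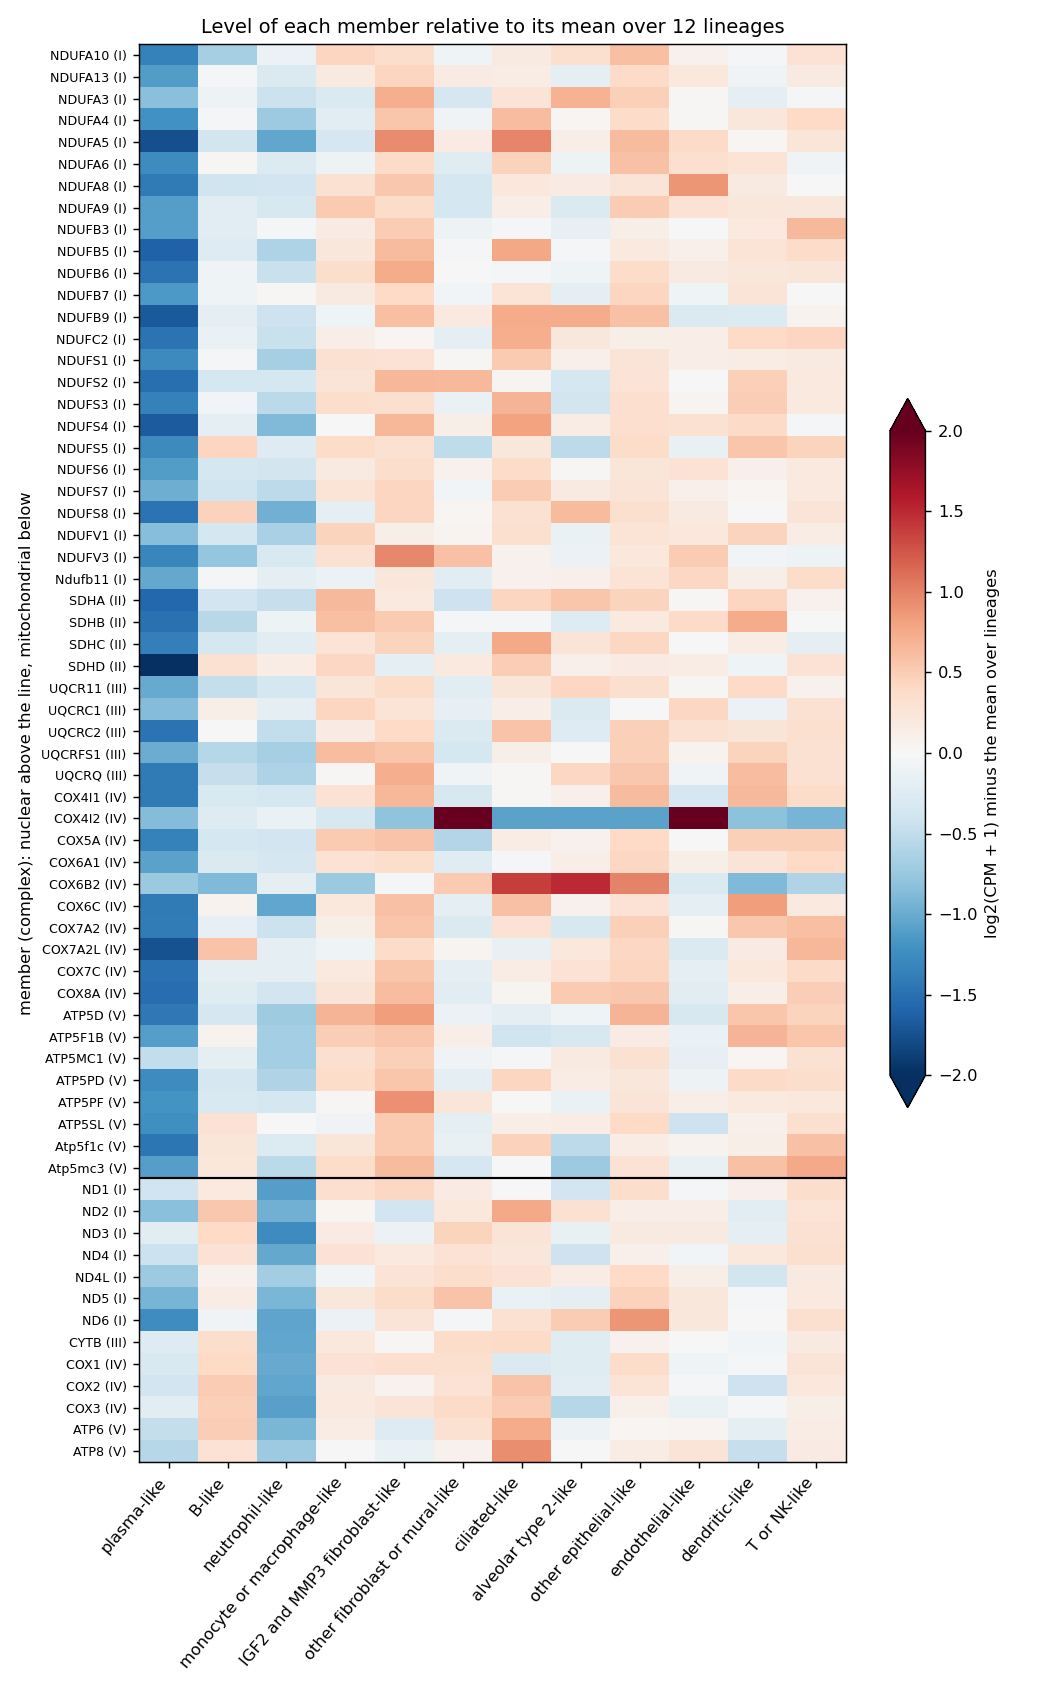
Mean level of each of the 65 members in 12 lineage classes, as log2(CPM + 1) minus that member's mean over the classes, with nuclear members above the line and mitochondrial members below it, ordered by complex. Blue runs down the plasma-like column for nuclear members and down the neutrophil-like column for mitochondrial members, and COX4I2 is red only in other fibroblast or mural-like and endothelial-like cells.

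Between the 2 fibroblast classes the genomes moved apart. In IGF2/MMP3 fibroblast-like cells, 40 of 51 nuclear members tested rose relative to other fibroblast or mural-like cells and 2 fell, while 0 of 13 mitochondrial members rose and 6 fell (edgeR quasi-likelihood test, Benjamini-Hochberg adjusted p under 0.05, animal as block). Of all 11311 features tested, 23.9% were called higher and 23.0% lower. The median log2 fold change was 0.51 for the nuclear members, -0.30 for the mitochondrial members and -0.01 for all features. COX6B2 did not pass the filter on low counts in any of the 4 comparisons, COX4I2 passed it only here, through the other fibroblast or mural-like class, and NDUFA9 and ATP5SL did not pass it in the ciliated-like comparison. The call of COX4I2, 1 of the 2 nuclear falls and 1 of the 9 complex IV members tested, therefore carries no weight. The other nuclear fall was SDHD. Each count of 0 in the 4 comparisons was also 0 at an unadjusted p under 0.05 and with DESeq2. The rises ran through every complex, with 17 of 25 nuclear members of complex I, 3 of 4 of complex II, 5 of 5 of complex III, 7 of 9 of complex IV and 8 of 8 of complex V. The mitochondrial-to-nuclear ratio was lower in IGF2/MMP3 fibroblast-like cells in 3 of 3 animals, with a log2 difference of -0.85 ± 0.13 (SD, n = 3). The exact two-sided sign-flip test gave p = 0.25, the smallest 3 animals allow. Of the barcodes classed without the limit, 15.8% of IGF2/MMP3 fibroblast-like and 7.12% of other fibroblast or mural-like ones lay at or above it. With no limit the mitochondrial median was -0.07, the nuclear median 0.48 and the log2 difference in ratio -0.62. Mitochondrial members called were then 3 lower and 1 higher, beside 2580 and 2570 of 11865 features.

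The largest rise was that of COX5A, a nuclear subunit of complex IV (ENSHGLG00000047174). It had 463, 335 and 454 CPM after TMM scaling (trimmed mean of M-values, which sets each library's effective size from the bulk of its genes) in IGF2/MMP3 fibroblast-like cells, against 220, 161 and 225 in other fibroblast or mural-like cells. The classes did not overlap, and the log2 fold change was 1.05 ± 0.10 (SE, edgeR adjusted p = 4.8e-05). COX4I1 had 1037, 882 and 1187 TMM-scaled CPM in IGF2/MMP3 fibroblast-like cells against 581, 444 and 693 in the other class (log2 fold change 0.87 ± 0.10, edgeR adjusted p = 0.000169). The values of the 2 classes again did not overlap. NDUFA3, an accessory subunit of complex I, rose by 0.93 ± 0.10, Atp5mc3, which encodes the c subunit of the complex V rotor, by 0.85 ± 0.11, ATP5D by 0.85 ± 0.12 and UQCRFS1, the Rieske iron-sulfur protein of complex III, by 0.81 ± 0.11 (SE), each in 3 of 3 animals.

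By size the falls were led by COX4I2, whose call carries no weight, with 4 UMIs among 33119353 in IGF2/MMP3 fibroblast-like cells against 363 among 8160924 in other fibroblast or mural-like cells. Its level was thus 368-fold lower in IGF2/MMP3 fibroblast-like cells, with an exact 95% interval of 143 to 1359 that covers counting error only. The nuclear median was 0.51 both with COX4I2 and with it left out. ND2, a membrane-arm subunit of complex I, had 4056, 3416 and 5142 TMM-scaled CPM in IGF2/MMP3 fibroblast-like cells against 7061, 5793 and 7932 in the other class, a log2 fold change of -0.73 ± 0.10 (edgeR adjusted p = 0.000459) without overlap. ND3, also of complex I, changed by -0.71 ± 0.10, ATP6, the proton channel subunit of complex V, by -0.70 ± 0.10, SDHD by -0.50 ± 0.12 and CYTB, the cytochrome b of complex III, by -0.47 ± 0.10, all in 3 of 3 animals and with overlapping ranges for ND3, ATP6 and SDHD.

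These classes differed in more than the members. Fibroblast markers, 9 of 10 measured, overlapped, at 4281 to 8739 CPM in IGF2/MMP3 fibroblast-like and 5482 to 8374 CPM in other fibroblast or mural-like cells. Basal markers, 5 of 6 measured, summed to 354 to 639 CPM in the former against 8.32 to 29.2 CPM, with 4 at 0, in the latter. General epithelial markers, 7 of 13 measured, summed to 84.5 to 116 CPM against 12.3 to 31.4 CPM. The part of these markers in the result was not tested. Median UMIs per cell were 17624 in IGF2/MMP3 fibroblast-like and 5367 in other fibroblast or mural-like cells. With cells matched on UMIs within each animal, at 205, 169 and 216 cells per class, 23 of 51 nuclear members tested were called higher with a nuclear median of 0.34, beside 14.2% of all features, and the ratio was 4.55, 4.48 and 5.12 in IGF2/MMP3 fibroblast-like cells against 7.08, 7.81 and 7.69 in the other class. The mitochondrial median in the matched cells was -0.17, against -0.30 in all kept cells. Markers of cycling cells, 4 of 5 measured, summed to 428, 547 and 394 CPM in IGF2/MMP3 fibroblast-like cells against 86.2, 47.2 and 107 CPM in the other class, with none of the 4 at 0 in either, and their part in the result was not tested. Mural markers, 8 of 8 measured and none at 0, summed to 21.8, 52.0 and 28.5 CPM in IGF2/MMP3 fibroblast-like cells against 164, 165 and 163 CPM in other fibroblast or mural-like cells. Mesothelial markers, 4 of 6 measured, summed to 13.6, 8.33 and 10.8 CPM in IGF2/MMP3 fibroblast-like cells, with 1 at 0, against 1339, 793 and 1906 CPM in other fibroblast or mural-like cells, with none at 0, and their part was not tested either. Macrophage markers, 10 of 13 measured, summed to 12455, 12810 and 14517 CPM in IGF2/MMP3 fibroblast-like cells against 22613, 12802 and 25517 CPM in other fibroblast or mural-like cells, and APOE made up 98.3% of those UMIs in the IGF2/MMP3 and 98.4% in the other class. Within the other fibroblast or mural-like class, 67, 55 and 48 cells had a COX4I2 UMI, and their mural markers summed to 654, 528 and 688 CPM against 54.7, 118 and 90.7 CPM in the cells without. The mitochondrial-to-nuclear ratio of the cells with a COX4I2 UMI was 7.41, 6.54 and 7.42, against 7.34, 7.72 and 7.93 in the cells without, so COX4I2 detection split the class by mural markers while the ratios of the 2 sets of cells overlapped. Without animal 1 the number of mitochondrial members called lower was 3 and that of nuclear members 1, beside 17.7% of all features, while the medians were 0.50 for nuclear and -0.29 for mitochondrial members.

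In plasma-like cells, antibody-secreting descendants of B cells, the direction of the members depended on what they were scaled to. As shares of all UMIs, with all kept cells, both genomes were lower than in B-like cells, of which animals 1, 2 and 3 gave 517, 702 and 58. After TMM scaling, 34 of 50 nuclear members tested were higher in plasma-like cells and 2 lower, and 12 of 13 mitochondrial members were higher and 0 lower (edgeR quasi-likelihood test, adjusted p under 0.05). Of all 8687 features tested, 22.6% were called higher and 22.2% lower. With library totals and no TMM factors, 0 nuclear members were called higher and 48 lower, and 0 mitochondrial members higher and 13 lower, while the median of all features moved to -1.64 and 367 features were called higher and 7189 lower, against 1959 and 1926 after TMM scaling. The TMM factors were 0.43 to 0.70 in plasma-like and 1.73 to 1.94 in B-like cells. The nuclear members had a median log2 fold change of 0.59 with TMM and -1.08 with library totals, and all features -0.01 and -1.64. The nuclear median thus lay above that of all features. The change of scale moves every feature by nearly the same amount, so the distance between these medians is kept by construction.

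On the TMM scale, ATP5MC1, another c-subunit gene of complex V (ENSHGLG00000035460), differed most among the members. It had 714, 502 and 664 TMM-scaled CPM in plasma-like cells against 221, 191 and 285 in B-like cells, without overlap, a log2 fold change of 1.45 ± 0.14 (SE, edgeR adjusted p = 2.06e-06), but -0.26 with library totals. UQCRFS1 differed by 1.28 ± 0.16, NDUFS7 and NDUFV1, core subunits of complex I that carry electrons from NADH to quinone, by 1.2 ± 0.16 and 1.16 ± 0.15, ND1 by 1.15 ± 0.11 and UQCR11, a small subunit of complex III, by 1.12 ± 0.14 (log2, SE), each higher in 3 of 3 animals with TMM and reversed with library totals. COX7A2L and SDHD were lower in plasma-like cells on both scales. COX7A2L had 75.6, 71.9 and 87.0 TMM-scaled CPM in plasma-like cells against 136, 98.2 and 132 in B-like cells, without overlap (log2 fold change -0.64 ± 0.14, edgeR adjusted p = 0.00283). SDHD had 84.2, 52.5 and 91.2 TMM-scaled CPM in plasma-like cells against 135, 89.9 and 117 in B-like cells, with a slight overlap (log2 fold change -0.64 ± 0.14, edgeR adjusted p = 0.00287).

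The ratio of the genomes does not depend on the scaling, and it was higher in plasma-like cells in 3 of 3 animals, by 0.33 ± 0.25 on the log2 scale (SD, n = 3, exact two-sided sign-flip p = 0.25, the smallest possible). Plasma-like cells had 14200 UMIs at the median and B-like cells 1869. In cells matched on UMIs, only 34 to 42 per class and animal, the ratio was 16.6, 13 and 17.5 in plasma-like cells against 9.20, 7.12 and 8.67 in B-like cells. The plasma-like class held 2 clusters that differed in the nuclear share: the smaller, led by KRT1 and CCR10, had 0.95%, 0.941% and 0.989%, and the larger 0.432%, 0.451% and 0.330%, with mitochondrial shares of 4.66% to 5.52% in the smaller and 4.77% to 5.57% in the larger. The ratio was 4.91, 5.35 and 5.58 in the smaller cluster and 11, 11.4 and 16.9 in the larger, so in each animal the smaller lay below and the larger above B-like cells with 7.98, 7.5 and 9.43. Without animal 1, 18 nuclear members were called higher and 0 lower, beside 13% of all features called higher, with a nuclear median of 0.54. Without animal 2, 1 was called lower.

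In neutrophil-like cells the mitochondrial members were lower than in monocyte or macrophage-like cells, and part of the nuclear members were lower too. Of 13 mitochondrial members 11 fell and 0 rose, and of 50 nuclear members tested 17 fell and 0 rose (edgeR quasi-likelihood test, adjusted p under 0.05), beside 15.7% of all 11035 features called lower and 15.6% called higher. The median log2 fold change was -1.01 for mitochondrial members, -0.39 for nuclear members and -0.09 for all features. By complex, the nuclear falls were 8 of 25 in complex I, 1 of 4 in complex II, 1 of 5 in complex III, 2 of 8 in complex IV and 5 of 8 in complex V. The ratio was lower in neutrophil-like cells in 3 of 3 animals, with a log2 difference of -0.63 ± 0.18 (SD, n = 3, exact two-sided sign-flip p = 0.25, the smallest possible). With library totals, 39 nuclear members were called lower, the median of all features moved to -0.37, and 1266 features were called higher and 3046 lower, against 1726 and 1732 after TMM scaling.

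ND1, which forms part of the quinone chamber of complex I (ENSHGLG00000000006), fell most. It had 2169, 1427 and 3939 TMM-scaled CPM in neutrophil-like cells against 5849, 3986 and 7291 in monocyte or macrophage-like cells, with no overlap between the classes (log2 fold change -1.27 ± 0.19, edgeR adjusted p = 0.000571). ATP5D, the largest nuclear fall, had 54.8, 69.9 and 116 TMM-scaled CPM in neutrophil-like cells against 157, 154 and 225 in monocyte or macrophage-like cells, also without overlap (log2 fold change -1.21 ± 0.18, edgeR adjusted p = 0.00046). ND4, a proton-pumping subunit of complex I, changed by -1.12 ± 0.18, ND3 by -1.11 ± 0.17, UQCRFS1 by -1.08 ± 0.17 and COX1, the catalytic core of complex IV, by -1.07 ± 0.19 (log2, SE), each in 3 of 3 animals.

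Neutrophil-like cells were shallow, with 1523 UMIs at the median against 7810 in monocyte or macrophage-like cells. In cells matched on UMIs, 0 of 49 nuclear members tested were called lower, beside 11.6% of all features, and their median was 0.07, while the mitochondrial median was -0.66. The ratio in those cells was 3.66, 3.90 and 4.43 in neutrophil-like against 6.57, 7.91 and 5.91 in monocyte or macrophage-like cells. With a minimum of 2000 UMIs per cell the log2 difference in ratio was -0.15. Animal 3, with 158 neutrophil-like cells against 663 and 661 in animals 1 and 2, had the highest mitochondrial share of the class, 4.82%. Without animal 1, 4 nuclear and 3 mitochondrial members were called lower, beside 6.73% of all features, while the medians were -0.40 for nuclear and -0.92 for mitochondrial members. Macrophage markers, 10 of 13 measured and none at 0 in either class, summed to 1055 to 1611 CPM in neutrophil-like cells against 7482 to 8348 CPM in monocyte or macrophage-like cells, and their part in the result was not tested.

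In ciliated-like against alveolar type 2-like cells, 18 of 48 nuclear members tested were lower after TMM scaling and 0 higher, and 2 of 13 mitochondrial members were lower and 0 higher (edgeR quasi-likelihood test, adjusted p under 0.05). Of all 3797 features tested, 20.3% were called lower and 22.5% higher. Complex IV led, with 6 of 8 nuclear members lower, followed by complex V with 4 of 7, complex III with 2 of 5, complex I with 5 of 24 and complex II with 1 of 4. With library totals 0 nuclear members were lower and 14 higher, and 9 mitochondrial members were higher, while the median of all features was 0.68 in place of -0.01 with TMM, and 1660 features were called higher and 289 lower against 854 and 770 with TMM. The nuclear median was -0.35 with TMM and 0.33 with library totals. The classes were small, with 61, 25 and 54 ciliated-like and 27, 32 and 102 alveolar type 2-like cells, and the nuclear members called lower numbered 11, 10 and 9 without animals 1, 2 and 3, with 0 mitochondrial members called lower without animal 3. Features called lower were then 635 of 3896, 700 of 4323 and 495 of 3672.

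COX8A, a small nuclear subunit of complex IV (ENSHGLG00000012316), was lower on both scales in 3 of 3 animals. It had 631, 564 and 651 TMM-scaled CPM in ciliated-like cells against 1331, 1181 and 1351 in alveolar type 2-like cells, without overlap (log2 fold change -1.07 ± 0.18, edgeR adjusted p = 0.000172). UQCRQ, a small subunit of complex III, changed by -1.04 ± 0.23, COX7A2L by -0.98 ± 0.23, NDUFS8, a core iron-sulfur subunit of complex I, by -0.96 ± 0.18, NDUFA3 by -0.95 ± 0.18 and ND6, a membrane-arm subunit of complex I, by -0.84 ± 0.23 after TMM scaling (log2, SE), each in 3 of 3 animals. With library totals COX7A2L and ND6 were lower in 2 of 3 animals, and UQCRQ, NDUFS8 and NDUFA3 in 3 of 3. The ratio of the genomes was 6.65, 6.44 and 6.64 in ciliated-like cells against 3.77, 4.54 and 5.70 in alveolar type 2-like cells, without overlap, a log2 difference of 0.51 ± 0.30 (SD, n = 3, exact two-sided sign-flip p = 0.25, the smallest possible). IGKC stood at 3149, 82427 and 2702 CPM in ciliated-like cells and at 2048, 17400 and 3200 CPM in alveolar type 2-like cells, so immunoglobulin RNA was highest in animal 2 in both classes, and its part in these results was not tested.

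**Figure D3:**
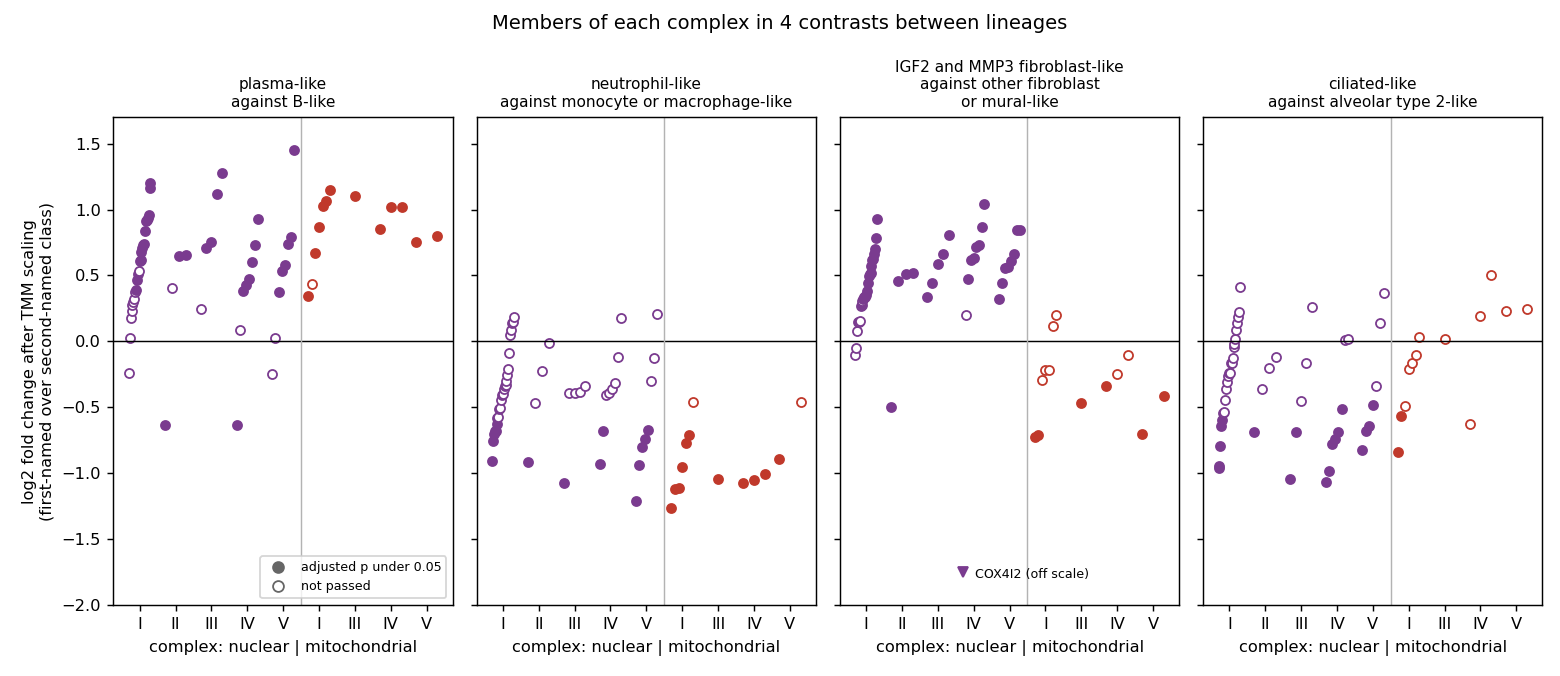
Log2 fold change of each member after TMM scaling in the 4 comparisons, first-named class over second, by complex, with nuclear members in purple and mitochondrial members in red, filled where the adjusted p is under 0.05. In the fibroblast panel nuclear points lie mostly above 0 and mitochondrial points mostly below, with COX4I2 off scale. In the plasma-like and ciliated-like panels the median of the nuclear members has the opposite sign with library totals.

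The mitochondrial transcripts also differed in their proportions, which depend neither on library size nor on scaling. COX1 made up 9.0%, 9.67% and 8.33% of mitochondrial UMIs in ciliated-like cells, below every animal of every other class, against 13.2%, 17.3% and 12.7% in alveolar type 2-like cells. COX3, which with COX1 and COX2 forms the core of complex IV, was instead 13.6%, 15.9% and 12.4% in ciliated-like cells against 8.55%, 12.1% and 9.90% in alveolar type 2-like cells. ND5, a proton-pumping subunit of complex I, was 0.630%, 0.75% and 0.640% in ciliated-like cells against 1.03%, 0.981% and 1.05% in alveolar type 2-like cells. COX1, COX3 and ND5 did not overlap between these classes, so subunits of the same complex took opposite positions.

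ND2 was the mitochondrial gene whose share did not overlap between the classes of any of the 4 comparisons. It was 10.4%, 9.58% and 11.5% of mitochondrial UMIs in ciliated-like cells against 12%, 11.6% and 12.7% in alveolar type 2-like cells, which lay above all other classes. It was 6.01%, 5.71% and 6.72% in plasma-like cells against 9.21%, 8.63% and 9.19% in B-like cells. In IGF2/MMP3 fibroblast-like cells it was 5.78%, 5.91% and 6.31% against 7.99%, 7.86% and 7.90% in other fibroblast or mural-like cells, while ND1 took the opposite direction, at 10.1%, 7.83% and 8.87% in IGF2/MMP3 fibroblast-like cells against 7.32%, 6.02% and 6.33% in other fibroblast or mural-like cells. In neutrophil-like cells ND2 was 8.99%, 9.52% and 8.25% against 7.89%, 7.41% and 7.28% in monocyte or macrophage-like cells. ND4 was highest in dendritic-like cells, at a mean of 8.31%, without overlap with the next class. The ranges of COX2, ATP6, ATP8, CYTB, ND3, ND4L and ND6 overlapped between the classes of all 4 comparisons, but within animals some of these shares moved one way. In IGF2/MMP3 fibroblast-like relative to other fibroblast or mural-like cells, the log2 difference in share was -0.37 ± 0.07 for ATP6, -0.38 ± 0.09 for ND3 and -0.14 ± 0.02 for CYTB, each below 0 in 3 of 3 animals, and 0.53 ± 0.03 for ND6, above 0 in 3 of 3 (SD, n = 3).

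**Figure D4:**
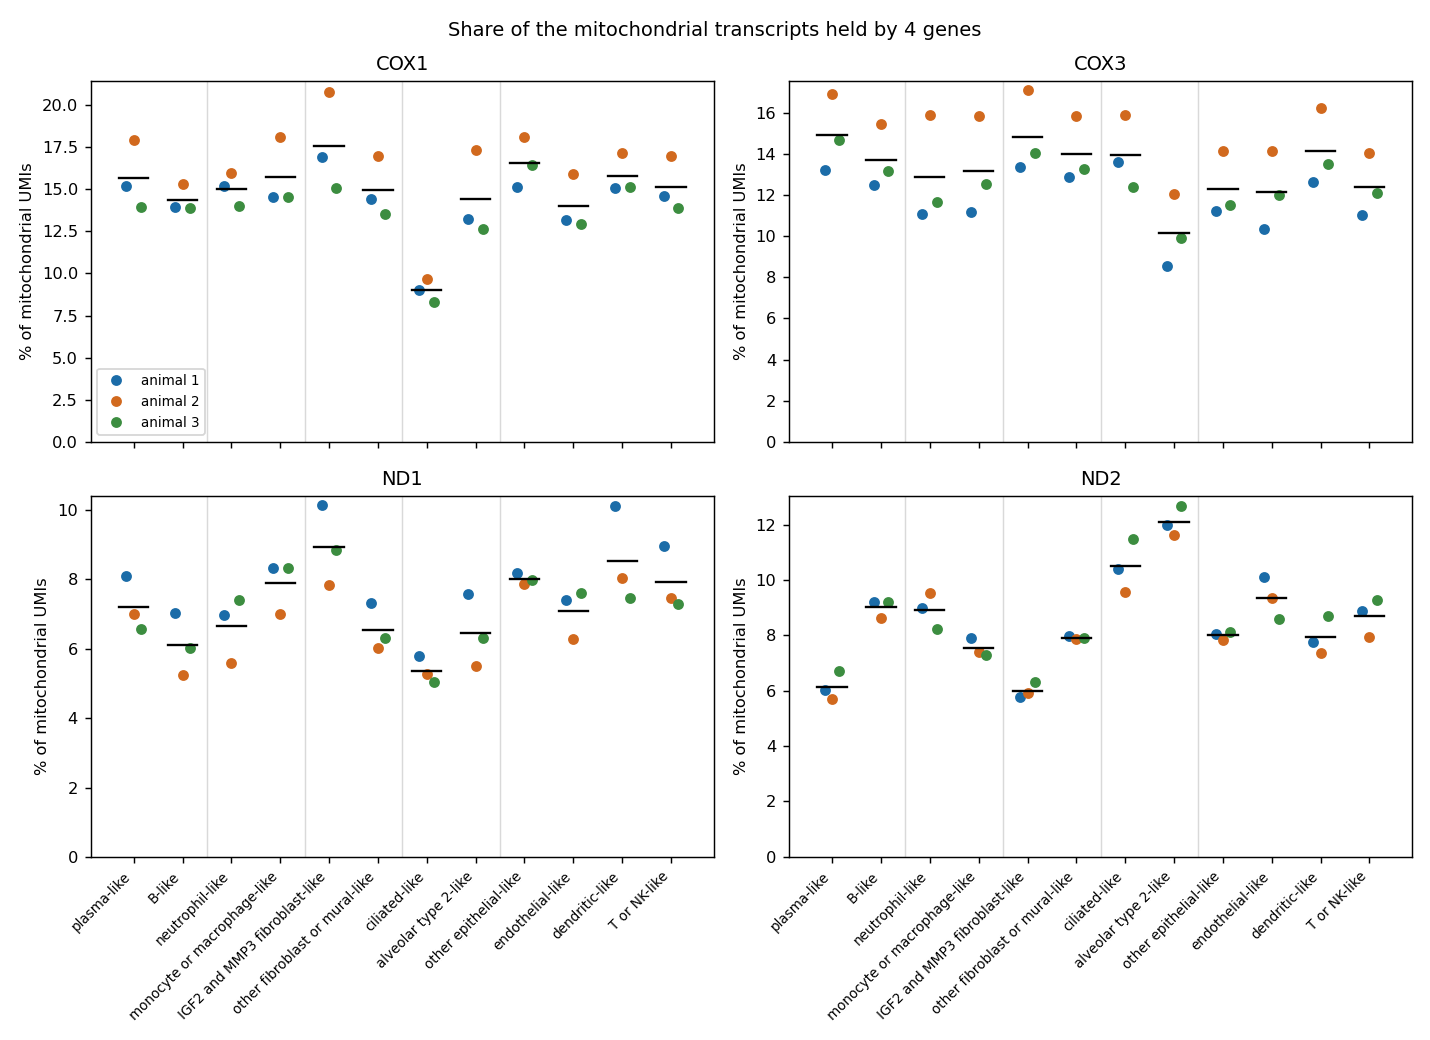
Share of mitochondrial UMIs (%) held by COX1, COX3, ND1 and ND2 in 12 lineage classes, with 1 point per animal and a line at the mean. COX1 is lowest in ciliated-like cells (8.33% to 9.67%) and ND2 highest in alveolar type 2-like cells (11.6% to 12.7%).

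The library of animal 2 stood apart in a few members in every class. ND3 had a median log2 ratio of 1.59 between animal 2 and the mean of animals 1 and 3 over the 12 classes, COX6C, a small subunit of complex IV, 1.22, NDUFA3 1.14 and ATP8, a small subunit of complex V, 1.08, each above 0 in 12 of 12 classes. These 4 of 65 members reached a median of at least 1 in this way, beside 1.35% of all 12520 features, and 0 members reached -1 or below. UQCR11, at 0.99, and ND4L, a small subunit of complex I, at 0.89, followed. In other fibroblast or mural-like cells, ND3 had 593, 1934 and 740 CPM in animals 1, 2 and 3. The contrasts between classes were taken within animals, so this offset entered both classes of each, but its size differed among classes. Over the 12 classes it ran from 1.11 to 1.80 for ND3, 0.49 to 1.71 for COX6C, 0.63 to 1.40 for NDUFA3 and 0.48 to 1.79 for ATP8. A block by animal does not remove the part that differs between classes. What set animal 2 apart was not tested.

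**Figure D5:**
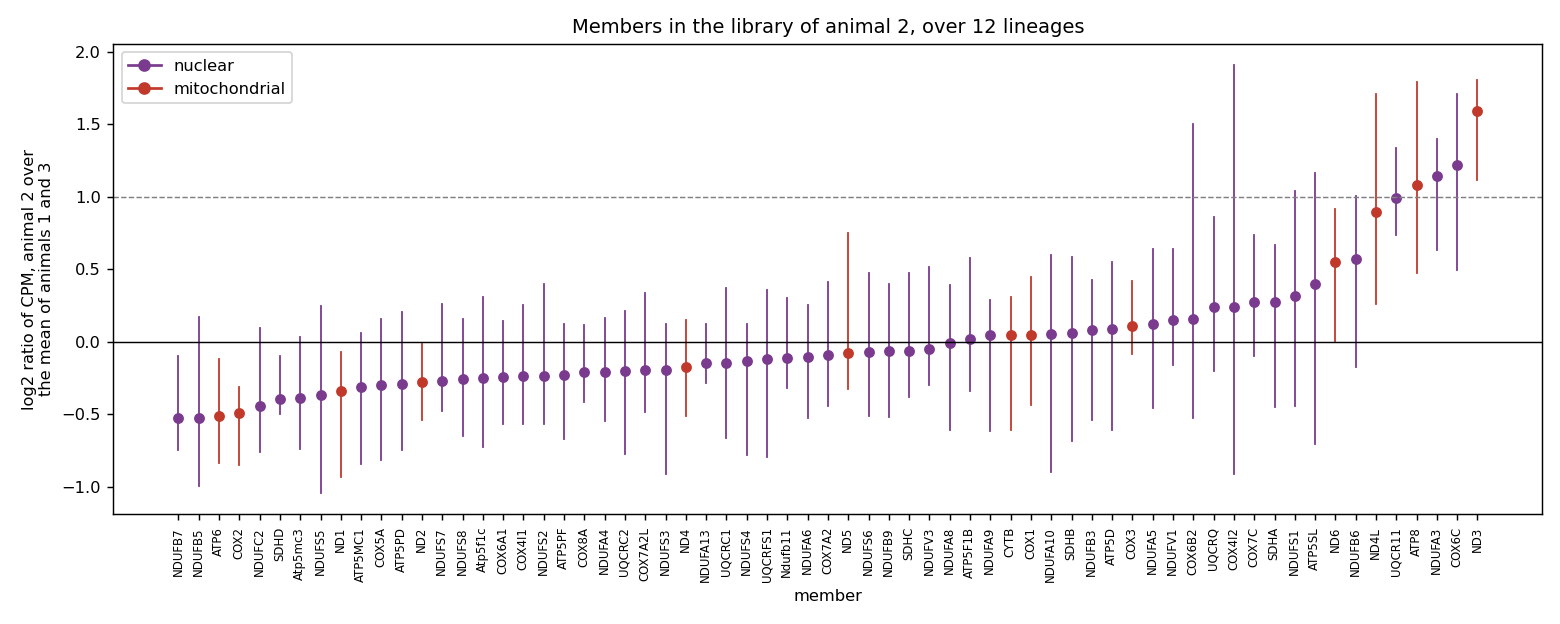
Log2 ratio of each member's CPM in animal 2 to the mean of animals 1 and 3, with the median over 12 lineage classes as a point and the lowest and highest class as a line, nuclear in purple and mitochondrial in red. ND3, COX6C, NDUFA3 and ATP8 lie above the dashed line at 1, and their lines stay above 0.

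The members also varied among the clusters of the broader classes. Among monocyte or macrophage-like clusters, the one led by FABP4, with PPARG and GPNMB among its leading genes, had mitochondrial shares of 9.39%, 8.82% and 9.45% and nuclear shares of 1.64%, 1.45% and 1.56%. The monocyte-like cluster had mitochondrial shares of 4.91%, 4.28% and 4.99% and nuclear shares of 1.01%, 0.885% and 0.987%, below the FABP4 cluster in both genomes without overlap. The cluster led by IDO1 with interferon-induced genes lay between, at 5.98%, 5.84% and 7.57% mitochondrial, although animal 3 gave only 43 of its cells. Among T or NK-like clusters, the cluster led by CD40LG and IL7R had a high mitochondrial share of 9.09%, 8.51% and 9.97% and a low nuclear share of 1.27%, 1.18% and 1.27%. The cluster led by EOMES had the reverse, with 6.37%, 6.27% and 7.21% mitochondrial and 1.83%, 1.73% and 1.72% nuclear. Median UMIs per cell were 2239 in the CD40LG cluster and 10032 in the EOMES cluster, and the part of depth in this difference was not tested.

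In animal 2 the highest shares of both genomes were those of osteoclast-like cells, named after the bone-resorbing cells whose markers they carry. These 192 osteoclast-like cells had 12.7% mitochondrial and 2.40% nuclear UMIs, above all 12 classes in that animal, of which the highest were 7.89% in B-like and 1.67% in IGF2/MMP3 fibroblast-like cells. Bone matrix-like cells of the same animal, 196 in number, had 5.79% and 1.41%. Mesothelial-like cells had 9.96% and 9.76% mitochondrial and 1.08% and 1.14% nuclear UMIs in animals 2 and 3. With 1 or 2 animals each, these classes entered no test.

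Removing the mitochondrial limit raised the mitochondrial share unevenly. Of the barcodes classed without the limit, 32.1% of other epithelial-like, 27.1% of monocyte or macrophage-like, 23.0% of ciliated-like and 15.8% of IGF2/MMP3 fibroblast-like ones lay at or above 20% mitochondrial UMIs, against 7.12% of other fibroblast or mural-like, 4.67% of neutrophil-like, 2.96% of plasma-like and 1.71% of B-like ones. The mean share then became 12% ± 3.5 in monocyte or macrophage-like and 9.13% ± 2.02 in IGF2/MMP3 fibroblast-like cells, against 9.12% ± 1.03 in other fibroblast or mural-like cells, so these 2 means, 7.21% and 8.33% under the limit, lay close together. Between the 2 fibroblast classes the median log2 fold change was then -0.07 for mitochondrial and 0.48 for nuclear members. The order of the classes changed at both ends. Monocyte or macrophage-like and other epithelial-like cells, at 12% ± 2.22, had the highest means, with B-like cells at 10.3% ± 3.19. Plasma-like cells had the lowest mean, 5.30% ± 0.36, and neutrophil-like cells averaged 6.45% ± 3.90, with 10.9% in animal 3. A cluster of 1503 barcodes with a median of 41.1% mitochondrial UMIs was counted with the monocyte or macrophage-like class there.

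Genes that work beside the members were described as 4 lists. In IGF2/MMP3 fibroblast-like cells, partner subunits and carriers gave 5 higher and 2 lower of 8 tested, assembly factors 9 and 1 of 28, genes of mitochondrial genome expression 4 and 1 of 17, and citric acid cycle genes 9 and 0 of 16, with medians of 0.57, 0.28, 0.10 and 0.47 on the log2 scale beside -0.01 for all features. NDUFA4L2, a paralog of NDUFA4 that hypoxia induces in human and mouse cells, had 16, 8 and 18 UMIs in IGF2/MMP3 fibroblast-like cells against 261, 297 and 300 in other fibroblast or mural-like cells, a level 82.9-fold lower in IGF2/MMP3 fibroblast-like cells with an exact 95% interval of 60.8 to 116 for counting error only. COX4I2 and NDUFA4L2 were thus both highest in other fibroblast or mural-like cells among the 12 classes. SLC25A4, an ADP/ATP carrier, lay the other way, with 96, 86 and 87 UMIs in IGF2/MMP3 fibroblast-like cells against 1, 3 and 1 in the other class, 13.3-fold higher by level in IGF2/MMP3 fibroblast-like cells with an interval of 5.61 to 41.2. Both passed the filter on low counts through the class where they were high, so their calls in the list counts carry no weight. CYC1, the cytochrome c1 of complex III, rose by 0.80 ± 0.10.

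In plasma-like against B-like cells after TMM scaling, the same lists gave 3 higher and 1 lower of 7, 10 and 1 of 23, 0 and 2 of 17, and 7 and 0 of 16. IDH2, the mitochondrial NADP-dependent isocitrate dehydrogenase, averaged 264 ± 48 TMM-scaled CPM in plasma-like against 39.1 ± 11 in B-like cells (log2 fold change 2.69 ± 0.16, edgeR adjusted p = 3.05e-08). UCP2, a carrier of the inner membrane, had a log2 fold change of -1.63 ± 0.19. In neutrophil-like against monocyte or macrophage-like cells the lists gave 0 higher and 4 lower of 7, 3 and 5 of 29, 1 and 2 of 18, and 0 and 7 of 16. SLC25A5, another ADP/ATP carrier, averaged 97.1 ± 48 TMM-scaled CPM in neutrophil-like against 227 ± 27 in monocyte or macrophage-like cells (log2 fold change -1.33 ± 0.21, edgeR adjusted p = 0.000791). In ciliated-like against alveolar type 2-like cells they gave 1 and 2 of 6, 0 and 2 of 10, 0 and 0 of 1, and 1 and 1 of 9. SLC25A4 averaged 59.3 ± 14 TMM-scaled CPM in ciliated-like against 331 ± 72 in alveolar type 2-like cells (log2 fold change -2.48 ± 0.22, edgeR adjusted p = 4.80e-07).

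Over the 36 sums, the features whose log2 CPM was most like the summed nuclear members were SUCLG1 (Pearson r = 0.96), CYC1 (r = 0.94), PDCL3 (r = 0.93), TMEM14C (r = 0.92) and SAP18 (r = 0.92). Those most like the summed mitochondrial members were less close: C5orf24 (r = 0.78), PIGL (r = 0.76), CDK5RAP3 (r = 0.75), MED29 (r = 0.75) and MRPS23 (r = 0.74). The sums share libraries and totals, so these are descriptions with no test.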

How the data were processed

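Single-cell RNA of lung tumours was measured in 3 animals, 1 library each. The matrices as deposited hold UMI counts of features by barcode, with no normalization, which the authors made with Cell Ranger, version 7.1.0 per the file headers and 8.0.0 per the submitters' processing notes. The genome build is not given in the sources used here. Barcodes had been limited before deposit to 9500, 10000 and 10000, with lowest totals of 1298, 1150 and 2174 UMIs.

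The filter asked for 1000 or more UMIs, 500 or more genes and a mitochondrial share under 20%. Scrublet's automatic threshold marked 0 of 25044 cells and so had not worked, and 464 cells scoring 0.2 or more were taken out. Counts scaled to 10000 per cell were log-transformed and clustered on 2000 variable genes without the members and their related genes (30 principal components, 20 neighbours, Leiden resolution 1, scanpy 1.11.5, leidenalg 0.10.2, igraph 0.11.9, Python 3.11.15). Epithelial clusters were split again with 15 components at resolution 0.3, and the IGF2/MMP3 cluster was set apart from other fibroblasts where the mean log2 fold of both genes was at least 2; both steps were chosen after the clusters were seen. A type passed in a cluster where 3 or more of its markers had UMIs in 10% or more of the cells. Its score also had to lie at least 1 (log2) above the median cluster. The cluster was called X-like after the highest-scoring type that passed. No type outside its family could score higher, or pass and reach 75% of that score. The 10 leading genes had not to go against the name. Families were B and plasma, macrophage and monocyte, T and NK, fibroblast and mural, and all epithelial types. Monocyte was not held against neutrophil. The names therefore do not exclude related types. Of the 31 clusters, 5 stayed unnamed (12.0% of kept cells). "Other epithelial-like" means epithelial-like cells that are neither ciliated-like nor alveolar type 2-like, among them a cluster led by AGER.

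Counts were summed per animal and class, for classes with at least 20 cells in every animal, and tested with edgeR 4.0.16 in R 4.3.3 (quasi-likelihood, TMM, filterByExpr, Benjamini-Hochberg over all features tested, threshold 0.05). Alternative cell filters and clusterings allowed a lower floor of cells for the classes compared. The animal was a block, since both classes of a comparison come from the same animal. The replicate numbers therefore pair the sums by design. Each comparison was fitted on its own 6 sums. Ratios of the genomes were compared within animals by an exact sign-flip test, and intervals of counts cover counting error only. The sums of a class share no cells with those of another, but free RNA in droplets is shared by all classes of a library.

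Members and lists were chosen with earlier results of these data known. Members are named where they are mitochondrial, are among the 6 largest rises or falls past the threshold in 3 of 3 animals, are among the 10 widest nuclear ranges, are alternative isoforms, or lie below 1 CPM at the median. Other clusters' leading genes and the COX4I2 split of cells were chosen after their values were seen. On simulated counts of the same depth, 44.8% (plasma-like against B-like), 54.5% (neutrophil-like), 78.4% (IGF2/MMP3 fibroblast-like) and 70.0% (ciliated-like) of 2-fold changes were recovered. Unchanged features called in error numbered 1, 0, 12 and 4 in that order. The simulation had a fixed spread for all features, no differences between animals and the same base profile in both classes. It changed only features with enough counts, so these shares do not measure recovery in the real data.

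Alternatives were DESeq2 1.42.0 and its size factors, no filter on low counts, no replicate block, mitochondrial genes left out, each animal left out, other mitochondrial, UMI and doublet limits, Leiden resolution 2, members kept in clustering and cells thinned to 1000 UMIs. Library totals without TMM factors and cells matched on UMIs were added after the data were seen. No sequences are printed, as none were among the files.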

Additional observations from a re-analysis of the deposited data

How the results depend on the processing

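Of the values that answer a comparison, 253 stayed within 1.5 times (counts) or 1 SD (ratios) of the reported value and 66 did not. Of the values of named members, 998 kept their direction and side of the threshold, 94 lost the threshold, 46 passed it and 46 changed sign. The cause of these changes was not tested.

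The animal was a block in the reported fits. With no replicate block, the pairing by animal is lost and the counts were 16 nuclear members higher, 1 lower and 0 mitochondrial lower in IGF2/MMP3 fibroblast-like cells, 21 nuclear higher, 1 lower and 5 mitochondrial higher in plasma-like cells, 3 nuclear and 0 mitochondrial lower in neutrophil-like cells, and 9 nuclear and 0 mitochondrial lower in ciliated-like cells. The medians moved little, to 0.50 for nuclear and -0.32 for mitochondrial members in IGF2/MMP3 fibroblast-like cells, where features called higher fell to 14.5% of all tested. Features called higher were then 1446 of 8687 in the plasma-like comparison. Those called lower were 895 of 11035 in the neutrophil-like comparison, beside 3 of 50 nuclear members. In the ciliated-like comparison they were 590 of 3797, beside 9 of 48 nuclear members. Both of these nuclear counts lay near the share of all features.

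Leaving out each animal gave, in plasma-like cells, 18 to 38 nuclear members higher, 0 to 2 lower and 11 to 12 mitochondrial higher. It gave 4 to 21 nuclear and 3 to 13 mitochondrial members lower in neutrophil-like cells. In IGF2/MMP3 fibroblast-like cells it gave 29 to 35 nuclear higher, 1 to 2 lower and 3 to 6 mitochondrial lower, and in ciliated-like cells 9 to 11 nuclear and 0 to 3 mitochondrial lower. Of all features, 1158 of 8934, 1519 of 9133 and 2312 of 9330 were called higher in plasma-like cells without animals 1, 2 and 3. Called lower were 758 of 11267, 1428 of 11068 and 1738 of 11213 in neutrophil-like cells. In IGF2/MMP3 fibroblast-like cells 2033 of 11511, 2207 of 11850 and 2226 of 11462 were called higher, and 2042, 2346 and 2190 lower. In ciliated-like cells 635 of 3896, 700 of 4323 and 495 of 3672 were called lower. Members differing among classes numbered 61 to 62. The log2 difference in ratio lay between 0.19 and 0.43 in plasma-like, -0.73 and -0.57 in neutrophil-like, -0.92 and -0.79 in IGF2/MMP3 fibroblast-like, and 0.36 and 0.66 in ciliated-like cells.

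For plasma-like cells, library totals gave 0 nuclear higher and 48 lower, and 0 mitochondrial higher and 13 lower. Matching on UMIs gave 6 nuclear higher, 0 lower and a ratio difference of 0.91, thinning gave 1 nuclear lower, and a mitochondrial limit of 10% a ratio difference of 0.64. With matching the 6 were of 40 tested, near the share of all features, 250 of 1454 called higher. With thinning 803 of 4503 features were called lower. For neutrophil-like cells, the nuclear members called lower were 29 without a filter on low counts, 27 with a minimum of 2000 UMIs, 27 with members kept in clustering, 39 with library totals and 0 with cells matched on UMIs. Features called lower were 2461 of 17710, 1695 of 11095, 2084 of 11286, 3046 of 11035 and 608 of 5253 in that order. The ratio difference was -0.40 with the 10% limit, -0.15 with 2000 UMIs and -0.44 with members kept in clustering. For IGF2/MMP3 fibroblast-like cells, thinning gave 25 and matching 23 nuclear higher, beside 836 of 5014 and 1265 of 8913 features called higher. The mitochondrial members called higher were 1 with no mitochondrial limit, 1 with library totals and 1 with matching, and those called lower were 3 with no limit and 10 with the 10% limit, with ratio differences of -0.62 with no limit, -0.99 with the 10% limit and -0.68 with matching. Features called higher were 2570 of 11865 with no limit, 3377 of 11311 with library totals and 1265 of 8913 with matching. Features called lower were 2580 of 11865 with no limit and 2373 of 10719 with the 10% limit. For ciliated-like cells, the nuclear members called lower were 9 without the filter, 6 with DESeq2, 4 with the 10% limit, 3 thinned and 0 with library totals, and those called higher 1 thinned and 14 with library totals. Features called lower were 842 of 14358 without the filter, 399 of 3797 with DESeq2, 502 of 3700 with the 10% limit and 136 of 640 thinned. With DESeq2 the 6 were of 48 tested, near the share of all features. The mitochondrial members called higher were 1 without the filter, 1 with no limit, 1 at resolution 2, 3 thinned and 9 with library totals. Features called higher were 1281 of 14358, 984 of 3816, 954 of 3905, 221 of 640 and 1660 of 3797 in that order. The mitochondrial members called lower were 0 with DESeq2, 1 with no limit, 1 with the 10% limit, 0 thinned and 0 with library totals. With no limit 751 of 3816 features were called lower. The ratio difference with the 10% limit was 0.18 ± 0.35 (SD, n = 3, exact sign-flip p = 0.5), with the animals not sharing a direction. The ciliated-like comparison was not run with cells matched on UMIs, because 13 cells per class were left in animal 2.

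With library totals the log2 fold changes in plasma-like cells turned to -0.26 for ATP5MC1, -0.36 for UQCRFS1, -0.47 for NDUFS7, -0.49 for NDUFV1 and -0.54 for UQCR11. Among mitochondrial members they turned to -0.98 for ATP6, -0.88 for ATP8, -0.71 for COX1, -0.88 for COX2, -0.71 for COX3, -0.62 for CYTB, -0.58 for ND1, -1.38 for ND2, -0.64 for ND3, -0.70 for ND4, -0.76 for ND4L, -1.05 for ND5 and -1.22 for ND6. In IGF2/MMP3 fibroblast-like cells COX1 turned to 0.085 with no limit, 0.014 with library totals and 0.039 with matching. ND1 turned to -0.066 with the 10% limit, ND4 to 0.0042 with no limit, and ND4L to 0.066 with no limit and 0.0082 with matching. In ciliated-like cells with library totals COX1 turned to 0.039, ND1 to 0.45, ND2 to 0.50, ND3 to 0.56, ND4L to 0.18 and ND5 to 0.10. With each animal left out in turn, ATP8 ranged over -0.017 to 0.59, CYTB over -0.084 to 0.19, ND3 over -0.23 to 0.097 and ND4 over -0.092 to 0.20. CYTB turned to -0.095 with the 10% limit. ND1 turned to 0.0014 when thinned, and ND2 to 0.073 with no limit, 0.023 with the 10% limit, 0.0019 with no doublet removal and 0.24 when thinned. ND3 turned to 0.017 without the filter, 0.033 with no limit and 0.051 when thinned, and ND4 to -0.0036 with no replicate block and -0.12 with the 10% limit.

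Depth limits the rarest members, COX4I2 outside other fibroblast or mural-like cells and COX6B2 throughout. With 3 animals the sign-flip test cannot pass 0.05, so the ratio differences rest on their size and on the 3 animals sharing a direction, which the ciliated-like difference lost with the 10% limit.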
